A study of Mus musculus with 5 samples.

Results

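The set described here is the output end of the Hippo pathway: the transcriptional coactivators YAP (Yap1) and TAZ (Wwtr1), the 4 TEAD DNA-binding partners (Tead1 to Tead4), and 4 genes that YAP and TEAD are known to switch on, Lats2, Amotl1, Amotl2 and Ankrd1. The members were the array probes whose RefSeq accession belongs to these 10 genes, with no use of measured values, which gave 16 of 56595 probes and 10 of the 22907 genes that the probes name. Each of the 10 genes had at least 1 probe: 3 each for Tead1 and Lats2, 2 each for Tead2 and Tead4, and 1 each for the others. The RNA came from B16F1 cells, a mouse melanoma line, and was hybridised to 5 one-colour Agilent arrays. Tmsb4x knockout (KO) cells, as 2 clones, received 10 ng/ml TGF-β1 for 2 days (n = 2, 1 array per clone). Wild-type (WT) cells received 10 ng/ml TGF-β1 with 10 µM CCG1423, an inhibitor of MRTF signalling (n = 1), or TGF-β1 alone (n = 1), each for 2 days. Other WT cells received vehicle (n = 1), for which the labels give no time. Tmsb4x encodes thymosin β4, which binds monomeric actin, and MRTFs are SRF coactivators that monomeric actin restrains. The series title and sample labels speak of a knockout and the design text of a knockdown, the treatment field of the CCG1423 array names CCG1423 alone, and its title names both agents. The vehicle array was the only one without TGF-β1, and no knockout cells without TGF-β1 were measured.

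In the Hippo pathway, the kinases MST1/2 activate LATS1/2, and LATS phosphorylates YAP and TAZ so that they stay in the cytoplasm or are degraded. Unphosphorylated YAP and TAZ enter the nucleus and bind TEADs, which recognise the MCAT element. Stretch, adhesion and filamentous actin favour nuclear YAP, and the genes it induces include its own inhibitors, LATS2 and the angiomotin-like scaffolds, so the pathway carries negative feedback. The control is mostly by protein phosphorylation and location, which RNA levels do not report.

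RefSeq promoter windows (build GRCm38.p6, 250 bases before to 50 after a start) were on hand for 8 of the 10 genes, with 12 windows in all; Tead1 and Tead4 had no entry. The TEAD core GGAATG, searched on both strands, was in 8 of the 12 windows, of Yap1, Wwtr1, Tead3, Lats2, Amotl2 and Ankrd1, and in 14.7% of 32851 mouse windows. Neighbouring windows of Wwtr1 overlap, as do those of Tead3, so the same site can count more than once. The CArG box, the element bound by SRF, was in 0 of the 12 and in 1.63% of all windows, and the SMAD-type element CAGAC, on either strand, was in 4 of the 12 and in 49.6% of all. The palindromic SMAD element GTCTAGAC, which holds no whole CAGAC on either strand, was in 0 of the 12 and in 0.213% of all. Of the feedback targets, the windows of Ankrd1, Amotl2 and Lats2 are printed 5′ to 3′ on the gene's strand, with the core, or its reverse complement, in capitals. The Amotl1 window holds no core and is not printed.
Ankrd1, chr19:36119795-36120094, minus strand: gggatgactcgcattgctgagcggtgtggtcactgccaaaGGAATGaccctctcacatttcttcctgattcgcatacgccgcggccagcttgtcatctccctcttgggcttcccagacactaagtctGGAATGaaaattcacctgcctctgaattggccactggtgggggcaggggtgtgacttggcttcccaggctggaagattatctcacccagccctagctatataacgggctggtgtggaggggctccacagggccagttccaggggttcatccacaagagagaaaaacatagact
Amotl2, chr9:102717554-102717853, plus strand: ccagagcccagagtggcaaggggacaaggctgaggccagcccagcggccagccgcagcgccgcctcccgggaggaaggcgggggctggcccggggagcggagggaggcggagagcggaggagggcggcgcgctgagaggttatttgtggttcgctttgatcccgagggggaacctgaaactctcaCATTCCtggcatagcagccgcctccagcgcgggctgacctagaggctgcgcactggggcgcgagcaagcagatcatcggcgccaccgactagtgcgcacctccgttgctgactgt
Lats2, first start, chr14:57746074-57746373, minus strand: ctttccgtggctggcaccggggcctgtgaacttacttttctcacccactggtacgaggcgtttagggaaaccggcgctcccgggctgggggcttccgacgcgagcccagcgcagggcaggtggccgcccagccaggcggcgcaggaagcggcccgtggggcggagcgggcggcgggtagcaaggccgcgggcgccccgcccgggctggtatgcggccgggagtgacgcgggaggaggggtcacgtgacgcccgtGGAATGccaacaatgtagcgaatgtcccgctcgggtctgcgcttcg
Lats2, second start, chr14:57734369-57734668, minus strand: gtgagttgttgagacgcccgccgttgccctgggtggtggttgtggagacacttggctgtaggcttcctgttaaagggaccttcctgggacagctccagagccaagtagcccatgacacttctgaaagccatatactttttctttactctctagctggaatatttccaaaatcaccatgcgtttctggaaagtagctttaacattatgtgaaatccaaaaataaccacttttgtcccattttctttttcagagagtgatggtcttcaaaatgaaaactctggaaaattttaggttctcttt
The Ankrd1 window holds the core at -210 and -123 from its start, the Amotl2 window at -65 on the opposite strand, and the first Lats2 window at 5 after the start (first base of each match, counted from 1 at the start and -1 before it). The Ankrd1 match at -123 shares its first base with a match to CAGAC that begins at -127. The second Lats2 window holds none and has 42.7% G and C, against 71.7% in the first. The table does not say which Lats2 transcript begins at which start.

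Levels below are the log2 processed signal minus the 75th percentile of the array, so a probe at 0 lies at that percentile. Levels of different probes are not set against each other, because probes differ in how brightly they hybridise. Each member probe had 1 spot per array. By the scanner software's flag, 48.2% to 53.8% of an array's probes were well above background, and 0 spots were saturated. Of the 16 member probes, 15 were well above background on all 5 arrays, and the Ankrd1 probe was so only on the WT TGF-β1 and vehicle arrays. The lowest signal with that flag was 26 for clone 2, against 13.3 to 15.5 elsewhere, so dim genes were bounded less tightly in clone 2. All 7 melanocyte lineage markers were well above background on every array, and their summed level was 2658 and 2691 times the 75th percentile in the clones, 1750 with CCG1423, 2324 with TGF-β1 and 2234 with vehicle. The part of that difference in the results was not tested, and in RNA from whole cultures fewer cells of a kind and less RNA per cell cannot be told apart. No fibroblast, endothelial or epithelial marker was well above background on all 5 arrays, with 4 of 5, 3 of 4 and 4 of 5 on none. The immune markers Ptprc and Adgre1 were on none, and Cd3e, Cd68 and Itgam on all, and the summed level of the immune list was between 31.1 and 40.2 times the 75th percentile. The Tmsb4x level was 5.44 in clone 1, 4.28 in clone 2, 6.79 with CCG1423, 7.12 with TGF-β1 and 5.05 with vehicle. The KO difference of Tmsb4x was -2.26 on the log2 scale (limma, SE 0.46, adjusted p = 0.116), so it was lower in both clones than with TGF-β1 in WT cells without passing the threshold, and in clone 1 higher than with vehicle. The edited stretch of Tmsb4x is not stated, and its probe may lie outside it.

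The coactivators varied least among the members. Yap1, the main effector of the pathway, had levels of 5.21 in clone 1, 5.37 in clone 2, 5.12 with CCG1423, 5.53 with TGF-β1 and 5.46 with vehicle. The TGF-β1 and vehicle arrays were the highest and the CCG1423 array the lowest, within a range of 0.41. The gap between TGF-β1 and vehicle (0.07) was smaller than that between the clones (0.16). Wwtr1, which encodes TAZ, the paralogue of YAP, had levels of 3.84 in clone 1, 3.73 in clone 2, 3.99 with CCG1423, 3.84 with TGF-β1 and 3.64 with vehicle. Here the CCG1423 array was the highest and vehicle the lowest, over a range of 0.34, and clone 1, clone 2 and WT TGF-β1 lay within 0.11 of one another.

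The TEADs give YAP and TAZ their DNA contact. Tead1 was read by 3 probes. The probe A_51_P214423 had levels of 1.6 in clone 1, 1.88 in clone 2, 2.06 with CCG1423, 1.96 with TGF-β1 and 1.55 with vehicle. The probe A_55_P2798152 had levels of -0.80 in clone 1, -0.66 in clone 2, -0.36 with CCG1423, -0.66 with TGF-β1 and -0.94 with vehicle. For A_55_P2011390 they were -1.82 in clone 1, -2.33 in clone 2, -1.83 with CCG1423, -2.03 with TGF-β1 and -2.30 with vehicle. Vehicle was the lowest array and CCG1423 the highest by the first 2 probes, while by the last clone 1 was the highest and clone 2 the lowest. Against vehicle, TGF-β1 alone gave a higher level by all 3 Tead1 probes, by 0.27 to 0.41. With CCG1423 they stood a further 0.09 to 0.29 higher, although A_51_P214423 was lower by 0.04 on the authors' scaling. They differed between the clones by -0.28 to 0.51 (clone 1 minus clone 2), so these steps were of the order of the spread within the knockout.

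Tead2, a TEAD prominent in the early embryo, was the member with the smallest gaps between its probes' differences, among those with several probes. The probe A_55_P2129271 had levels of 2.75 in clone 1, 2.62 in clone 2, 3.23 with CCG1423, 2.61 with TGF-β1 and 3.31 with vehicle. The probe A_51_P227739 had levels of 0.22 in clone 1, -0.03 in clone 2, 0.47 with CCG1423, 0.02 with TGF-β1 and 0.68 with vehicle. By both probes the vehicle and CCG1423 arrays read higher than the 3 arrays with TGF-β1 and no inhibitor. The share of all probes that split the arrays this way was not counted. Relative to vehicle, Tead2 was 1.62-fold and 1.58-fold lower with TGF-β1 alone. Of the probes measured on all arrays, 7.26% and 8.08% differed at least as much. Tead2 was 1.53-fold and 1.37-fold higher with CCG1423 and TGF-β1 than with TGF-β1 alone. Steps of at least these sizes were found in 25.4% and 39.4% of the probes so measured. The clones differed from each other by 0.13 and 0.24 on the log2 scale, less than either step. No step reached 2-fold, and each rests on single WT arrays.

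Tead3 had 1 probe, with levels of 0.65 in clone 1, 0.74 in clone 2, 0.94 with CCG1423, 0.56 with TGF-β1 and 0.47 with vehicle. The CCG1423 array was the highest, 0.38 above TGF-β1 alone, and vehicle the lowest. Tead4, a TEAD known from trophoblast and muscle, was also highest with CCG1423 by both its probes. The probe A_51_P179041 had levels of 0.64 in clone 1, 0.91 in clone 2, 1.5 with CCG1423, 1.04 with TGF-β1 and 0.94 with vehicle. The probe A_66_P115604 had levels of -2.05 in clone 1, -2.03 in clone 2, -1.41 with CCG1423, -2.07 with TGF-β1 and -2.39 with vehicle. With CCG1423 the probes stood 1.38-fold and 1.58-fold above TGF-β1 alone. Each probe of the 4 TEADs was higher with CCG1423 and TGF-β1 than with TGF-β1 alone, by 0.09 to 0.66 on the log2 scale. The Tead1 probe A_51_P214423 was an exception on the authors' scaling. Over all probes 49.7% were higher in this comparison. Of the probes measured on all arrays, 22.6% to 85.8% differed at least as much as a given TEAD probe. The steps of the Tead1 probes A_51_P214423 (0.09) and A_55_P2011390 (0.20) were smaller than their own clone differences (0.28 and 0.51).

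**Figure D1:**
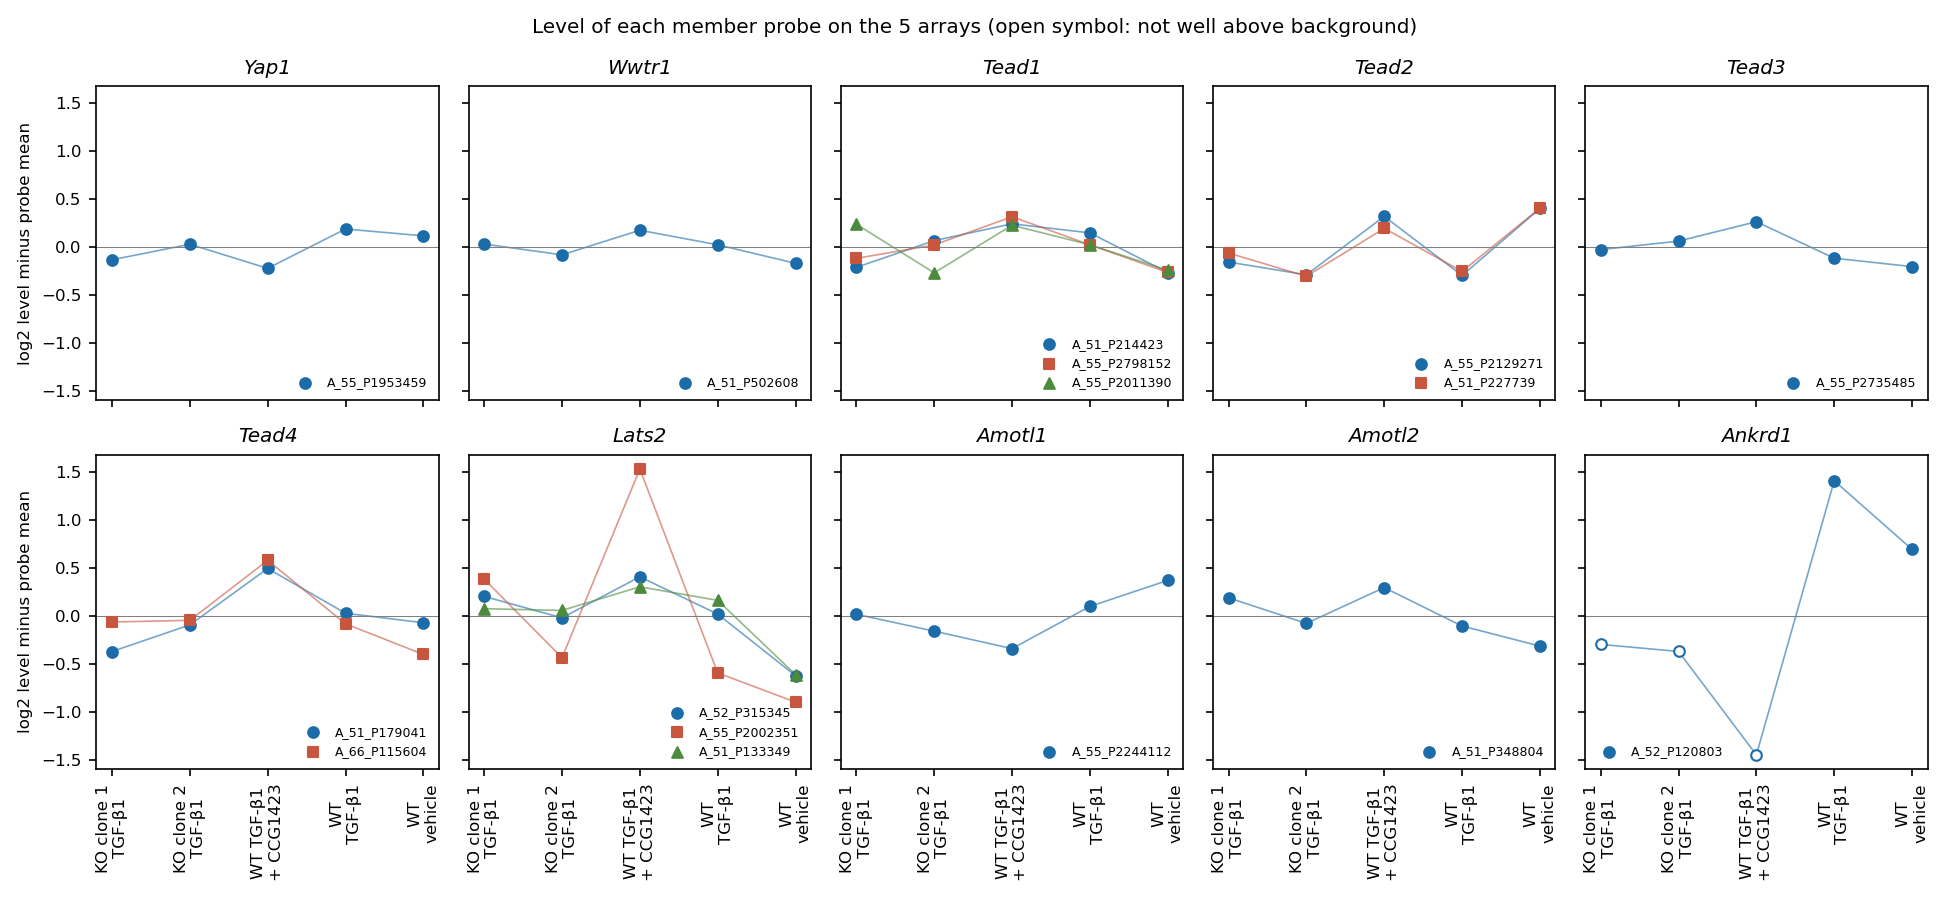
Each panel shows 1 gene and each symbol 1 probe on 1 array; the y axis is the log2 level minus the probe's own mean over the 5 arrays, and open symbols mark arrays where the probe was not well above background. The Tead2 probes dip on the 3 arrays with TGF-β1 and no inhibitor, 1 of the 3 Lats2 probes peaks with CCG1423, and Ankrd1 is measured only on the WT TGF-β1 and vehicle arrays.

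Among the feedback genes, Lats2, the kinase that inactivates YAP, was the one with the largest measured differences. Its probe A_52_P315345 had levels of 2.09 in clone 1, 1.86 in clone 2, 2.29 with CCG1423, 1.90 with TGF-β1 and 1.26 with vehicle. The probe A_51_P133349 had levels of -1.84 in clone 1, -1.86 in clone 2, -1.62 with CCG1423, -1.76 with TGF-β1 and -2.53 with vehicle. By both, vehicle lay below all 4 arrays that received TGF-β1, and CCG1423 was the highest. These 2 probes, assigned to the transcript NM_015771, read 1.56-fold and 1.71-fold higher with TGF-β1 alone, relative to vehicle.

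The other Lats2 probe, A_55_P2002351, is assigned to the transcript NM_153382 and behaved differently. Its levels were -1.36 in clone 1, -2.18 in clone 2, -0.21 with CCG1423, -2.34 with TGF-β1 and -2.64 with vehicle. The CCG1423 array stood clear of the rest, and clone 1 lay above clone 2 by 0.82. With CCG1423 this probe was 4.36-fold higher than with TGF-β1 alone, a difference matched or passed by 0.581% of the 25282 probes well above background on all arrays. On the log2 scale this was 2.12, and 1.33 with normexp background correction of the median signals. The other 2 Lats2 probes were 1.31-fold and 1.10-fold higher in the same comparison. The gap of 1.98 between Lats2 probes was matched or passed by 1.03% of the 4479 genes with at least 2 probes measured on all arrays. The processed signal of this probe was 198 with CCG1423 against 58.2 with TGF-β1 alone, and it was well above background on both arrays. Whether the transcripts differ in abundance or the probe bound other RNA was not tested.

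**Figure D2:**
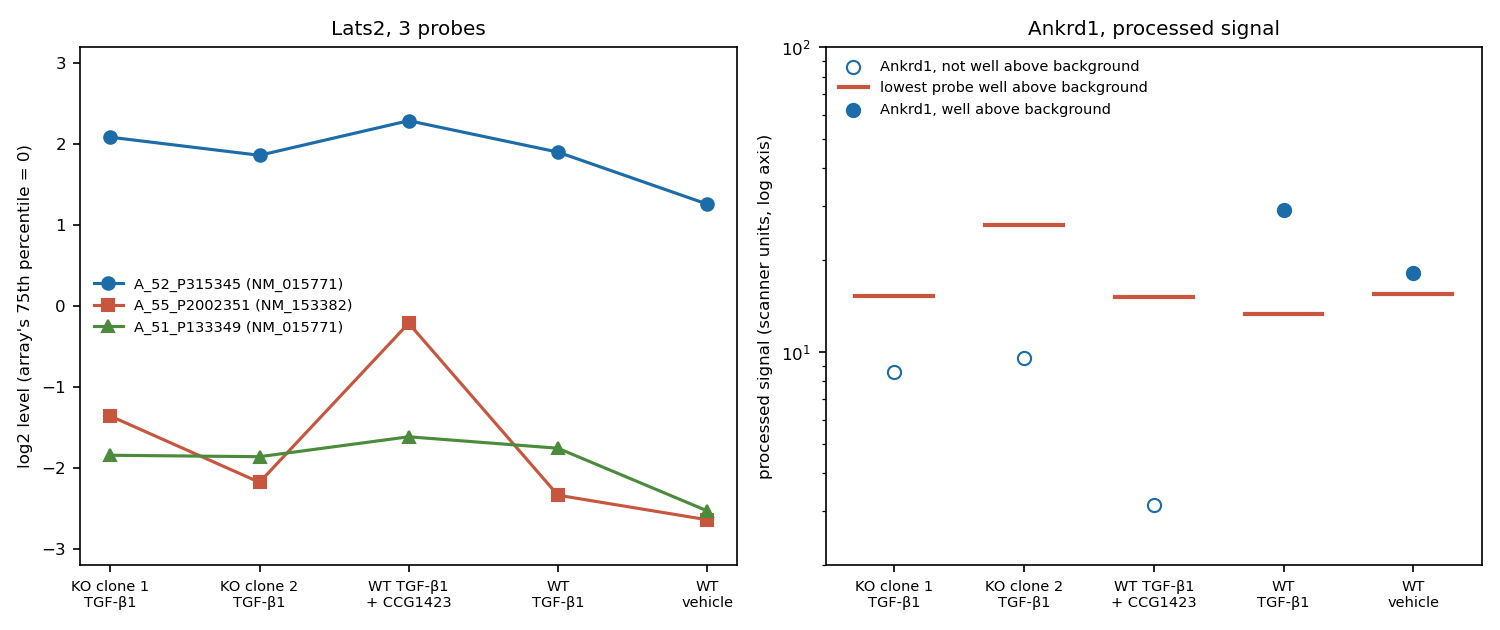
Left, log2 level of the 3 Lats2 probes on each array; right, processed signal of the Ankrd1 probe in scanner units on a log axis, with a bar at the lowest signal flagged well above background on that array. The Lats2 probe for NM_153382 departs from the others with CCG1423, and the Ankrd1 signal lies above the bar only on the WT TGF-β1 (29.3) and vehicle (18.1) arrays.

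Amotl1 and Amotl2 encode angiomotin-like scaffolds that hold YAP at junctions and promote its phosphorylation. Amotl1 had levels of -0.15 in clone 1, -0.33 in clone 2, -0.51 with CCG1423, -0.07 with TGF-β1 and 0.20 with vehicle. Amotl2 had levels of -0.02 in clone 1, -0.29 in clone 2, 0.09 with CCG1423, -0.31 with TGF-β1 and -0.52 with vehicle. The paralogues thus had opposite orders at the ends: vehicle was the highest array for Amotl1 and the lowest for Amotl2, and CCG1423 the lowest for Amotl1 and the highest for Amotl2. Relative to vehicle, Amotl1 was 1.21-fold lower with TGF-β1 alone, and relative to TGF-β1 alone it was 1.36-fold lower with CCG1423. Amotl2 was 1.16-fold and 1.32-fold higher in the same comparisons. For Amotl2 the step with TGF-β1 (0.21) was smaller than the difference between the clones (0.27).

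Ankrd1, a stress-responsive ankyrin-repeat protein of muscle that is widely used as a readout of YAP activity, was the only member not well above background on every array. Its processed signal was 8.57 in clone 1, 9.55 in clone 2, 3.15 with CCG1423, 29.3 with TGF-β1 and 18.1 with vehicle. Only the last 2 were well above background, and the WT TGF-β1 array was the highest of all. Relative to vehicle, Ankrd1 was 1.64-fold higher with TGF-β1 alone. With CCG1423 it was at least 1.5-fold lower than with TGF-β1 alone, and in the clones at least 1.83-fold (clone 1) and at least 1.26-fold (clone 2) lower. These bounds set the dim side at the lowest signal flagged well above background on its array, or at its own signal where that is higher, on normalized values. On the measured values, which are not well above background on the dim side, the mean level was -5.07 in the clones, -6.19 with CCG1423 and -3.33 with TGF-β1.

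In the comparison of TGF-β1 with vehicle in WT cells, 0 of 16 member probes differed at least 2-fold, against a background of 8.09% of 31767 probes. Limited to probes well above background on both arrays, that background was 1255 of 28244 probes. At 1.5-fold the member count was 5, against 16.2% of all probes. The 3 higher were 2 Lats2 probes and Ankrd1, against 8.8% of all probes, and the 2 lower were the Tead2 probes, against 7.43%. With normexp 2 of the 5 still passed 1.5-fold, against 7.58% of all probes: Lats2 by A_51_P133349 (0.36 on the log2 scale), Ankrd1 (0.27) and Tead2 by A_51_P227739 (-0.55) did not. On the authors' scaling 4 passed, without Tead2 by A_51_P227739 (-0.56). By sign, 13 member probes were higher and 3 lower, with a median of 0.24 on the log2 scale, against 43.3% of all probes higher and a median of -0.05. Their median absolute difference was 0.29, against 0.20 over all probes. Probes of 1 gene are not independent. With 1 probe per gene, 8 members were higher and 2 lower, with a median of 0.15. Over all genes 57.2% were lower, with a median of -0.05. With 1 array per group there was no test. As a measure of spread under 1 treatment, knockout clone 1 and clone 2 differed at least 2-fold in 8% of 30635 probes and in 0 of the 15 member probes measured in a clone. Of the 15 member probes measured on all arrays, 9 had a step larger than their own clone difference, against 37.9% of the 25282 probes so measured. That clone difference was smaller among the 16 members, with a median of 0.17 against 0.30 over all probes of the comparison.

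With CCG1423 and TGF-β1 against TGF-β1 alone, 1 of 16 member probes differed at least 2-fold, against 13.4% of 31509 probes. Among probes well above background on both arrays, that background was 2771 of 27166 probes. The member probe at 2-fold was the Lats2 probe for NM_153382, which was higher, against 6.94% of all probes higher. At 1.5-fold there were 4, against 31.6% of all. The 3 higher were that probe, 1 Tead2 and 1 Tead4 probe, against 15.7% of all probes, and the 1 lower was Ankrd1, against 16%. With normexp only the Lats2 probe for NM_153382 passed 1.5-fold, against 18.3% of all probes; Tead2 by A_55_P2129271 stood at 0.47 and Tead4 by A_66_P115604 at 0.47 on the log2 scale. On the authors' scaling these 2 probes stood at 0.48 and 0.53, also under 1.5-fold. Tead2 was at 0.57 with median scaling, again under it, and the Ankrd1 bound was 1.09-fold with normexp and 1.44-fold when the percentile was taken over probes well above background on all arrays. Again 13 were higher and 3 lower (Yap1, Amotl1 and Ankrd1; 12 and 4 on the authors' scaling), with a median of 0.34, against 49.7% of all probes higher and a median of -0.01. Their median absolute difference was 0.40, against 0.41 over all probes. With 1 probe per gene, 7 members were higher and 3 lower, with a median of 0.27. Over all genes 53.7% were lower, with a median of -0.05. Of the 15 member probes measured on all arrays, 13 had a step larger than their own clone difference, against 59.3% of the probes so measured. The members' clone differences were small (median 0.17, against 0.30 over all probes), so this share does not show larger steps with CCG1423. All 3 comparisons use the WT TGF-β1 array, so their values are not independent.

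Over the 5 arrays, the CCG1423 array was the highest for 10 of the 15 member probes measured on every array, against 28.3% of all probes so measured. Vehicle was the lowest for 9 of the 15, against 17% of all. With the scaling of the authors' value table these counts were 10 and 6, and under 4 other scalings 10 or 11 and 9. Probes of 1 gene are not independent, although some are assigned to different transcripts, and the 15 probes stand for 9 genes.

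In the knockout clones against WT cells, both with TGF-β1, 0 of 16 member probes passed limma's test at an adjusted p of 0.05 (smallest adjusted p = 0.861), against 0.478% of 30561 probes. At an unadjusted p under 0.05 there was 1, Ankrd1 (limma, unadjusted p = 0.046), against 5.66% of all probes. Its value rests on signals that were not well above background in either clone. At 2-fold in both clones the count was 0, against 2.31% of all probes, and at 1.5-fold it was 0, against 6.26%. Among probes well above background on every array compared, the background at 2-fold in both clones was 254 of 26076 probes. The spread has 1 residual degree of freedom, from the 2 clones, and the single WT array was assumed to vary like them. In limma each probe's variance is drawn toward a trend over all probes, so its SE and interval are not the probe's own clone spread. For Tead4 by A_66_P115604 the clone SD was 0.01 and the limma SE 0.36. A p that misses the threshold does not show that levels were alike, so the intervals are given. The difference of Yap1 was -0.32 in clone 1 and -0.16 in clone 2 (limma, mean -0.24, SE 0.30, 95% confidence interval from -0.93 to 0.45, adjusted p = 1). Tead2 by A_55_P2129271 differed by 0.14 and 0.01 (mean 0.07, 95% interval from -0.58 to 0.72) and Wwtr1 by 0.01 and -0.10 (mean -0.05, 95% interval from -0.71 to 0.61). The Lats2 probe for NM_153382 differed by 0.98 in clone 1 and 0.16 in clone 2. Outside that probe and Ankrd1, the mean differences ran from -0.26 to 0.16, with 95% intervals whose lower ends lay between -0.94 and -0.52 and whose upper ends lay between 0.41 and 0.86. The median absolute difference of the members was 0.11, against 0.24 over all probes.

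**Figure D3:**
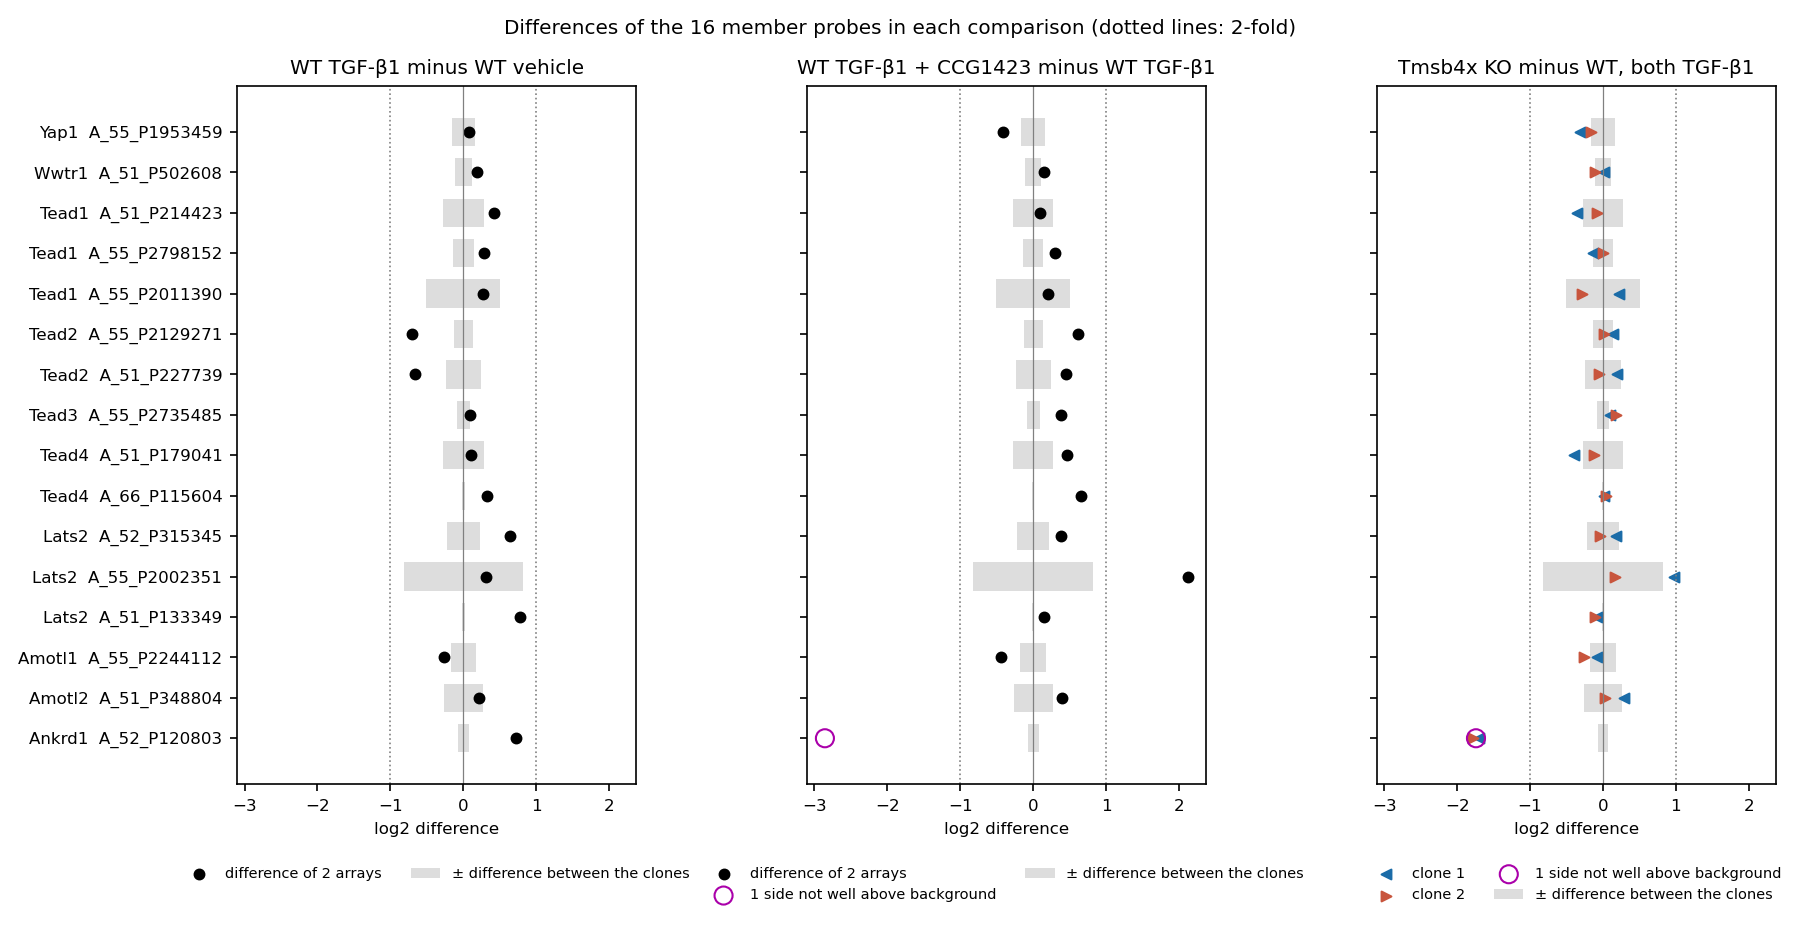
Log2 difference (x axis) of each of the 16 member probes (rows) in the 3 comparisons; grey bars span plus and minus the probe's difference between the knockout clones, dotted lines mark 2-fold, and rings mark probes not well above background on 1 side. The grey bar of Ankrd1 rests on clone signals that were not well above background. Only the Lats2 probe for NM_153382 with CCG1423 lies beyond 2-fold with both sides measured.

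The rest of the pathway was read with 1 probe per gene. Over all genes 8.21% differed at least 2-fold with TGF-β1 against vehicle, 13% with CCG1423 against TGF-β1 alone and 2.28% in both knockout clones against WT cells. The kinase cascade list holds the kinases and adaptors that lead to LATS, and all 10 of its genes were measured. In each of the 3 comparisons 0 of them differed at least 2-fold. With TGF-β1 against vehicle 9 of the 10 were lower, against 57.2% of all genes, with a median of -0.15 (from -0.78 to 0.06), although 6 of 10 were lower on the authors' scaling, against 40.8% of all genes. Their median was 0.02 with CCG1423 against TGF-β1 alone, but negative under 3 of 5 other scalings (-0.11 on the authors' scaling). In the knockout it was -0.09.

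Of 12 upstream regulators and scaffolds, 10 were measured, again with 0 at 2-fold in the 3 comparisons. Their medians were 0.06 with TGF-β1 against vehicle, -0.37 with CCG1423 against TGF-β1 alone (7 of 10 lower, against 53.7% of all genes) and -0.23 in the knockout (9 of 10 lower, against 50.5% of all genes), and each kept its sign under 5 other scalings. The knockout count uses the mean of the clones. Of the 9 lower, Fat1 and Dchs1 (named after their values were seen) and Amot had opposite signs in the clones. Amot, the founding angiomotin and relative of Amotl1 and Amotl2, was 2.52-fold lower in clone 1 than in clone 2, where 4.24% of genes were lower at 2-fold. Of 4 TEAD cofactors of the Vgll family, 2 were measured, with 0 at 2-fold. Over all genes the median was -0.05 with TGF-β1, -0.05 with CCG1423 and -0.005 in the knockout.

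The other YAP-TEAD targets came from a published signature with the members left out, and 17 of its 19 genes were measured. With TGF-β1 against vehicle 5 of the 17 were at least 2-fold higher, against 4.95% of all genes, and 0 were lower, against 3.27%, with a median of 0.53. Ccn2, a matricellular growth factor, was 55.5-fold higher, and F3, tissue factor, 2.68-fold higher. Ccn1, a matricellular protein, was 2.35-fold higher, and Rbms3, an RNA-binding protein, 2.01-fold higher (1.98-fold with normexp, median scaling or quantile normalization). Ccdc80, a matrix protein not well above background with vehicle, was at least 2.22-fold higher, or 1.31-fold with normexp, and was named after its value was seen.

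With CCG1423 against TGF-β1 alone 3 targets were higher, against 6.01% of all genes, and 2 were lower, against 6.98%, with a median of -0.01 that was positive under 2 of 5 other scalings. Gadd45a, a growth-arrest gene, was 10.3-fold higher. The receptor kinase gene Axl was 4.2-fold higher. Dock5, a Rac exchange factor, was 2.63-fold lower and Ccn2 2.2-fold lower. Ccn1, named here after its value was seen, was 2.15-fold higher. On the WT arrays, Ccn2, F3 and Dock5 shared with Ankrd1 the order of TGF-β1 above both vehicle and CCG1423. Ccn1, Axl and Rbms3 shared with Lats2 the order of CCG1423 above TGF-β1 above vehicle. The targets named were chosen for passing 2-fold, so part of each order was fixed by that choice. The Ankrd1 signal with CCG1423 was not well above background. Other targets of the list had each order too, and the share of all genes with either was not counted. The likeness did not always extend to the clones. F3 was higher in them (3.48 and 3.42) than with WT TGF-β1 (3.31), unlike Ankrd1, while Ccn2 and Dock5 were lower. Axl lay below vehicle (2.30) in both clones (1.72 and 1.63), unlike Lats2, while Ccn1 and Rbms3 lay above it.

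In the knockout, on the mean of the clones, 14 of the 17 targets were lower, against 50.5% of all genes, with a median of -0.20. On the authors' scaling 16 were, against 72.6% of all genes, whose median was then -0.20. Of the 14, Asap1, Ptpn14, Ccdc80 and Nuak2 (named after their values were seen) had opposite signs in the clones. Ccdc80 and Nuak2 were also not well above background in clone 2. By limma 0 of the 17 passed an adjusted p of 0.05, against 0.233% of 13729 genes, and 3 (Myof, Axl and Fjx1, named after their values were seen) had an unadjusted p under 0.05, against 5.78% of all genes. In both clones 1 was at least 2-fold lower, against 1.58% of all genes. It was Axl, at 2.3-fold in clone 1 and 2.46-fold in clone 2 (limma on 1 probe per gene, adjusted p = 0.149). Across the other 3 lists 0 genes passed limma's test, at an adjusted or an unadjusted p under 0.05.

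**Figure D4:**
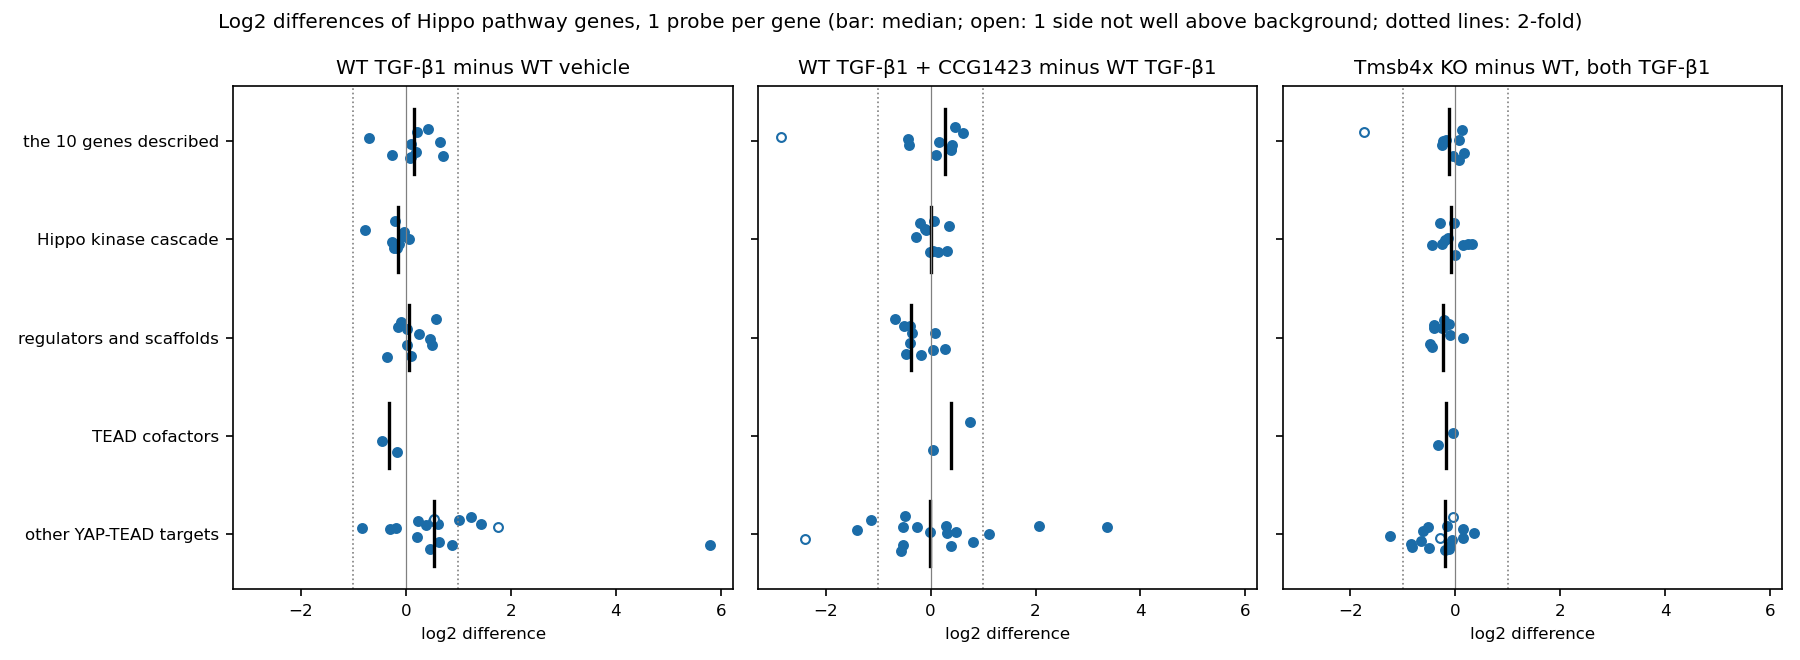
Log2 difference (x axis) of each gene (1 point, 1 probe per gene) in 5 groups (rows) and 3 comparisons (panels), with a bar at the group median; open points have 1 side not well above background. Points beyond the dotted 2-fold lines lie among the other YAP-TEAD targets and, as an open point in 2 panels, at Ankrd1. Open points there are drawn from measured values that were not well above background on 1 side.

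Of the genes, only Lats2 had a main probe measured on all arrays with a range of at least 1 log2 unit (1.03 for A_52_P315345). Of 12057 other genes measured on all 5 arrays, those with the closest profile after centring were Tspo, a mitochondrial translocator protein (root mean square difference 0.06 on the log2 scale), Rbm41, an RNA-binding protein (0.06), and Nox1, an NADPH oxidase (0.06). All 3, like Lats2 itself, had vehicle as the lowest array and CCG1423 as the highest, which follows from their choice by closest profile. A likeness over 5 arrays is a description only.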

How the data were processed

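Each of 5 arrays was read by the scanner and Agilent Feature Extraction 12.0.3.1, per the submitters' processing notes and the file headers. Per the file headers, the processed intensity is background-subtracted and spatially detrended array by array, with no step that equalises arrays. All 5 arrays lay on 1 slide in 1 scan, so no batch could be tested. The authors' deposited value table holds the same intensity times 1 constant per array (log2 -0.17 in clone 1, -0.08 in clone 2, 0.34 with CCG1423, 0.12 with TGF-β1, -0.01 with vehicle; column medians 23.2, 28.8, 27.5, 29.2 and 26.9); it is linear and not centred, and the rule behind the constants stays unknown. Separate cultures are not stated in the labels, so the spread behind a p-value may be technical in part.

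Control spots (3671) and outlier spots (107 to 141 per array) were left out, log2 signals were averaged per probe, and each array's 75th percentile was subtracted, leaving 56595 probes. Probes were named through RefSeq accessions of assembly GRCm38.p6 (32988 probes, 22907 genes); the headers name an older build. A probe entered a comparison if 1 side or both had the well-above-background flag on all arrays. Differences of single arrays were counted at 2-fold, and limma 3.58.1 in R 4.3.3 gave the knockout test (4 groups, mean-variance trend, Benjamini-Hochberg over all probes), checked on simulated data. For lists the probe with the highest mean stood for a gene. Text names all members, up to 4 genes per list and comparison at 2-fold (largest first, those measured on both sides first) and the 3 genes most like a member. Members, lists and rules were chosen with earlier results of these data known. Alternatives were other scalings, background corrections, filters and probe choices; normexp used median signals, since the files hold no mean signals, and was added after seeing the data. Figures used Python 3.11.15 and matplotlib 3.10.9.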

Additional observations from a re-analysis of the deposited data

How the results depend on the processing

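The count of member probes at 2-fold with TGF-β1 over vehicle stayed at 0 under 9 alternatives of scaling, background, filter and probe choice, and was 5 at a 1.5-fold threshold (2 to 5 under 5 other scalings and background corrections, chosen after seeing the data). With CCG1423 over TGF-β1 alone the count was 1; it was 4 at 1.5-fold (1 to 4 under the same 5), 2 with no filter and no floor (Ankrd1 added) and 0 with 1 probe per gene, which leaves out the Lats2 probe for NM_153382. In the knockout the count at 2-fold in both clones was 0, also without clone 1 and without clone 2, and 1 (Ankrd1) with no filter and no floor. With limma 0 member probes passed in any of the 11 fits, with 0 or 1 at an unadjusted p under 0.05 and a smallest adjusted p between 0.125 (no mean-variance trend) and 1, while the probes called over the whole array ran from 0 with quantile normalization to 702 with no filter, against 146. Without 1 clone no residual degrees of freedom were left, so no test could be run. The planned normexp on mean signals was not run. Of 138 recomputed differences with TGF-β1 0 changed sign, of 137 with CCG1423 1 did, and of 137 in the knockout 11 did. The authors' value table shifted all probes in the knockout to a median of -0.21, against -0.01, and put 1 of 16 members above 0, against 7. Its split of 2-fold calls over all probes was 12.2% higher against 25.5%, and with CCG1423 38.7% against 51.7%. The knockout split also depended on the filter. With only probes well above background on every array compared, 53.9% of 254 calls were higher. Signal over background limits Ankrd1 to bounds. No paired analysis was possible because all labels carry the same replicate number and only 1 group has 2 arrays.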
